A study of Homo sapiens with 2 samples.

Results

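The kinesin family is described here in AGS, a human gastric adenocarcinoma cell line, with and without added WTX. WTX, also named AMER1, is an X-linked gene studied as a tumour suppressor. AGS.W cells were AGS infected with a lentivirus carrying the WTX coding region, selected with puromycin as a stable line, and AGS.veh cells were the negative control. The sources used here do not say which vector AGS.veh received or whether either line was a clone. A single Affymetrix U133 Plus array was run per line, so no replicate, standard error or p-value could be had, and every difference below is between 2 arrays. Members were the probe sets that the platform annotation assigns to a single gene named KIF with a number, or KIFC1, KIFC2 or KIFC3. This gave 85 probe sets of 41 genes, out of 19775 genes on the array. Of these, 12 genes were grouped as mitotic kinesins (KIF2C, KIF4A, KIF11, KIF14, KIF15, KIF18A, KIF18B, KIF20A, KIF20B, KIF22, KIF23 and KIFC1) and 29 as the others. Each gene was read from its brightest probe set, as a log2 signal. A gene passed the signal filter when this signal reached the median of all probe sets on at least 1 array. For AGS.W this median was 4.02, and for AGS.veh 4.03. All 12 mitotic kinesins and 21 of the other 29 passed, and each of these 33 did so on both arrays, so none entered through the array on which it was brighter.

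Kinesins are motor proteins that use ATP to walk along microtubules or to shorten them. Mitotic kinesins build the bipolar spindle, move and align chromosomes and complete cytokinesis, and their transcripts rise in G2 and M phase of dividing cells. Transport kinesins carry vesicles, mitochondria and ciliary cargo, and several of them are used mostly by neurons or ciliated cells. Many mitotic genes are switched off outside G2 and M phase through a promoter element called the cell cycle genes homology region (CHR), which is bound by the DREAM and MuvB complexes and often lies just downstream of CCAAT boxes, the sites of the factor NF-Y.

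Promoters of the mitotic kinesins held these letters more often than those of the others. The letters did not choose the members, but they were searched as known elements of mitotic genes. A higher share in the mitotic group was therefore likely beforehand. RefSeq windows on GRCh38.p14 run from 250 bases before to 50 bases after the annotated start, and were matched for all 12 mitotic kinesins and for 21 of the 29 others, dim ones included. The CHR letters searched were TTTGAA and TTCGAA, and the NF-Y box was CCAAT, each on either strand. TTCGAA reads the same on both strands and was counted once. CHR letters were in the windows of 10 of 12 mitotic kinesins, against 2 of 21 others and 19.5% of all 27304 genes with a window. CCAAT was in those of 10 of 12, against 7 of 21 and 39.7% of all genes. Both kinds stood in 1 window for 9 of 12 mitotic kinesins, against 2 of 21 others and 7.85% of all genes. Counted by window instead, the shares over all 35115 windows were 16.3%, 34.6% and 6.37%. The 7 stretches shown first, from 80 bases before to 20 bases after the start, are those of mitotic kinesins with 1 window and both kinds inside the stretch. KIF2C, which had neither kind in its whole window, follows for contrast. Capitals mark the CHR letters and CCAAT boxes, written as they stand on the strand of the gene, so that TTCAAA and ATTGG are the same motifs on the opposite strand.

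KIF4A (chrX:70290024-70290123, plus strand): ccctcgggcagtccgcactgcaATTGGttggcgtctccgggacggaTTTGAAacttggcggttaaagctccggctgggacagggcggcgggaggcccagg
KIF11 (chr10:92593050-92593149, plus strand): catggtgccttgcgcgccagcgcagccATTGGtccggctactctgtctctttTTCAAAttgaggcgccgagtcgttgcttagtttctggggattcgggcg
KIF14 (chr1:200620732-200620831, minus strand): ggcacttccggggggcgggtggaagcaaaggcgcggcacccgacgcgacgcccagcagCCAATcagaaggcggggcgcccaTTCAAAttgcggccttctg
KIF18A (chr11:28108137-28108236, minus strand): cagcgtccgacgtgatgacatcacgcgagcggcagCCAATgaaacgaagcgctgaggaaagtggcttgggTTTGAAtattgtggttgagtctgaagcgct
KIF18B (chr17:44947754-44947853, minus strand): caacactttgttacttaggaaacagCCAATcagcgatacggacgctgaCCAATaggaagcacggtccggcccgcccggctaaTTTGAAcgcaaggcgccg
KIF23 (chr15:69414269-69414368, plus strand): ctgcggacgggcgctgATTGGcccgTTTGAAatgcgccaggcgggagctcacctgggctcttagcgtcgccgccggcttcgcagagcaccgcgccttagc
KIFC1 (chr6:33391743-33391842, plus strand): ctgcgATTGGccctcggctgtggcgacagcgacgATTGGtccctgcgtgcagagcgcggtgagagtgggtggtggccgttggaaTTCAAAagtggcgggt
KIF2C (chr1:44739757-44739856, plus strand): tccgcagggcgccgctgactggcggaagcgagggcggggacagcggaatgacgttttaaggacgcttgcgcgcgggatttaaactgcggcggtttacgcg

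In the first 7 stretches the CCAAT box came first and the CHR letters after it, toward the gene. Over the 9 mitotic kinesins with both kinds in a window, the nearest CCAAT box began between 9 and 122 bases before the CHR letters, with a median of 34.0 bases. KIF23 had the shortest spacing of 9, KIF14, KIF4A and KIF11 had 23, 24 and 25, and KIF20B had the longest of 122. The CHR letters of KIF20B lay downstream of the start, as did those of KIF14, KIF18B and KIFC1. KIF15 had CHR letters without CCAAT, KIF20A had 2 CCAAT boxes without CHR letters, and KIF2C had none. Among the other kinesins, both kinds were found for KIF24, a centriole kinesin, and for KIF5B. In KIF5B the order was reversed, with the CHR letters beginning 81 bases before the nearest CCAAT box. A match of letters is a description of the window and was not tested for binding.

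**Figure D1:**
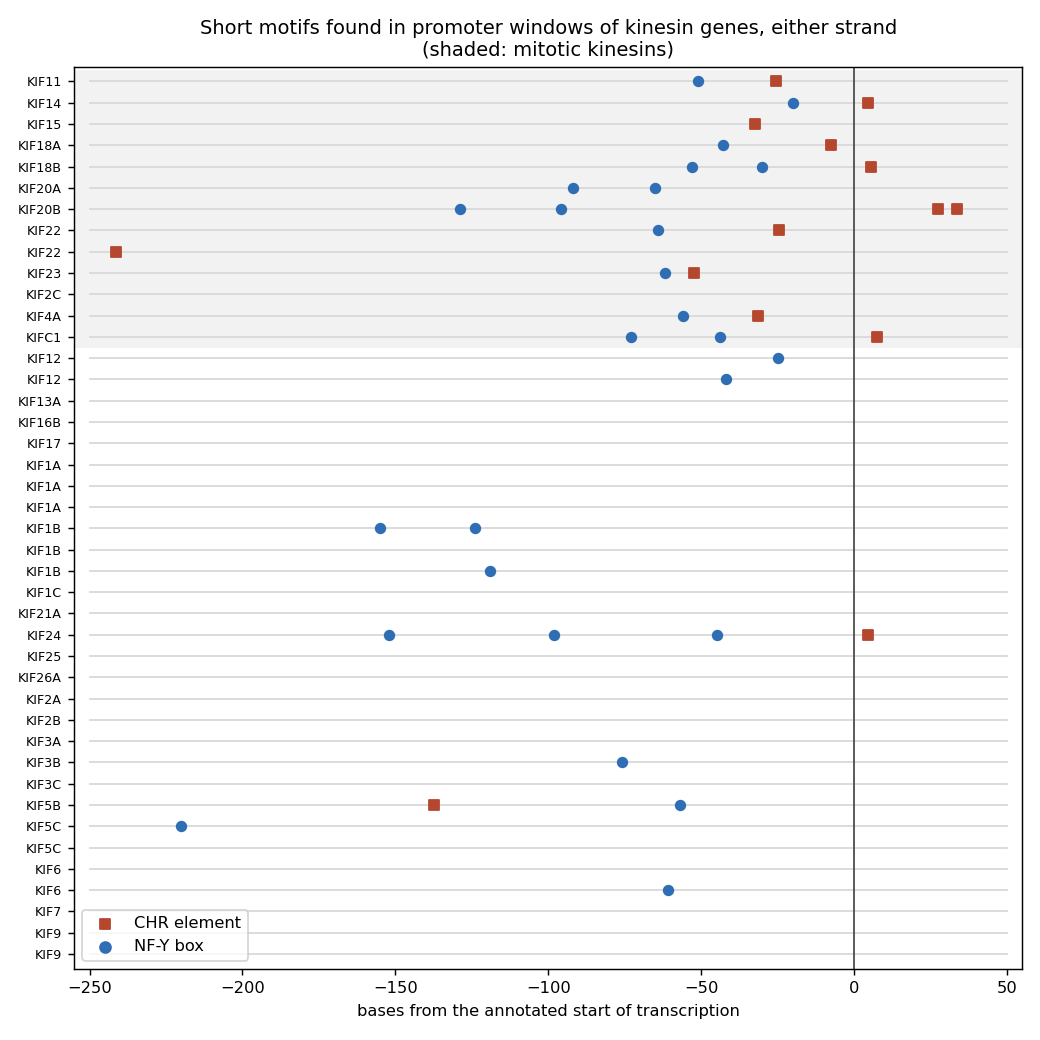
Positions of CHR letters (squares) and CCAAT boxes (circles) in each RefSeq promoter window of a kinesin gene, with bases from the annotated start on the horizontal axis and 1 line per window. In the shaded mitotic kinesins CHR letters lay in the windows of 10 of 12 genes, and in the other kinesins in those of 2 of 21.

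The labels of both samples describe AGS cells, although an extraction field names a brain tissue. Of 6 epithelial markers 4 passed the filter, and KRT19 and CDH1 did not. Of 5 gastric lineage markers 4 passed, of 6 neuron markers 3 and of 5 measured glia markers 2. Among all 19775 genes 12811 passed, so these counts lie near the background and do not identify the cells. The astrocyte genes GFAP, S100B and AQP4 lay below the median on both arrays, while the myelin genes MBP (AGS.W 6.10, AGS.veh 6.19) and MOG (4.70 and 4.35) passed. Some markers differed between the lines alongside the kinesins. The neuronal gene SNAP25 had 5.15 and 3.57, or 2.98-fold, but passed through AGS.W alone, since its AGS.veh signal lay below the median. As a mean of its probe sets SNAP25 had a log2 difference of 0.85. EPCAM had 6.88 and 5.96, or 1.89-fold, while KRT8, KRT18 and CLDN4 had differences of -0.38, -0.31 and -0.37. CLDN4 had -0.04 as a mean of its probe sets. The part of these marker differences in the kinesin differences was not tested. AMER1 itself gave 3.70 for AGS.W and 3.86 for AGS.veh as log2 signals of its single probe set, below the median on both arrays and not higher in AGS.W. The labels cannot be checked with it, since its position relative to the coding region in the vector is not known here.

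All 12 mitotic kinesins were higher in AGS.W than in AGS.veh, whereas the others went both ways. Log2 differences (AGS.W minus AGS.veh) of the mitotic kinesins ran from 0.12 for KIF23 to 0.94 for KIF14, with a median of 0.55. Of the other kinesins that passed the filter, 11 were higher and 10 lower, from -0.97 for KIF9 to 0.42 for KIF13B, with a median of 0.05. Over all 29 of these, dim ones included, 15 were higher, 13 lower and 1 equal, with a median of 0.04. Among all 12811 genes that passed, 45.7% were higher and the median difference was -0.01. The medians of both groups of kinesins lay 0.50 apart on the log2 scale, or 0.51 with dim members included. The groups overlapped, since 9 of the 21 other kinesins were at or above KIF23, the lowest of the mitotic kinesins. None of the 21 reached the mitotic median, and 9 of 12 mitotic kinesins lay above KIF13B, the highest of the others. As means over all probe sets of a gene, only 2 of 12 lay above the highest of the others, where KIF16B had 0.90. At a threshold of 1.5-fold, 5 mitotic kinesins were higher and none lower, where 6.64% of all genes were at least 1.5-fold higher. No kinesin was 2-fold apart on its brightest probe set, against 3.78% of all genes. In bulk RNA, more cells in G2 and M phase and more RNA per such cell cannot be told apart, and with 1 array per line the effect of the added gene and the difference between the cultures or arrays cannot be told apart either.

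**Figure D2:**
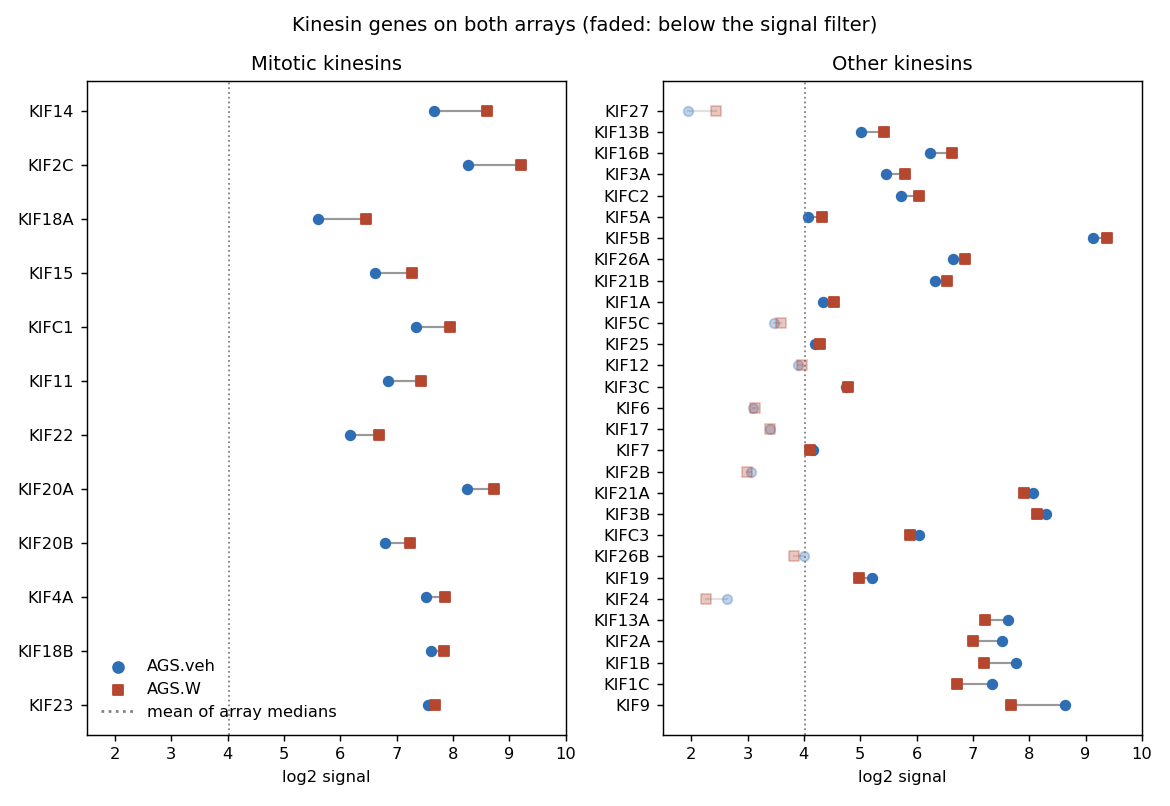
Log2 signal (horizontal axis) of each kinesin gene on its brightest probe set with circles for AGS.veh and squares for AGS.W, ordered by difference, with faded points for genes below the signal filter and a dotted line at the mean of the array medians. In the left panel the square lies to the right of the circle for all 12 mitotic kinesins, and in the right panel it does for 15 of 29 others; signals of different genes come from different probes and are not compared.

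Kinesins that set up and hold the bipolar spindle were higher by about the same amount. KIF11, the tetrameric motor that slides antiparallel microtubules apart and separates the poles, had a log2 signal of 7.43 in AGS.W against 6.84 in AGS.veh, a difference of 0.58, just short of 1.5-fold. KIF15, which can take over from KIF11 in keeping poles apart, had 7.27 and 6.62, or 1.57-fold. KIFC1, a motor of the opposite direction that focuses poles and clusters extra centrosomes, had 7.95 and 7.34, or 1.53-fold. These 3 therefore lay between 0.58 and 0.65 on the log2 scale, although KIFC1 acts against the other 2 in the spindle. Each was read by a single probe set. At most 6.69% of all genes that passed the filter had a difference as high as theirs.

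The motors of chromosomes and of microtubule ends showed a wider range. KIF2C, a kinesin that shortens microtubules at centromeres and helps to correct wrong attachments, had 9.20 in AGS.W and 8.27 in AGS.veh, or 1.91-fold. Its second probe set had 7.08 and 6.19, a difference of 0.89 against 0.93 on the first. KIF18A, which damps chromosome movements at the metaphase plate, had 6.46 and 5.61, or 1.80-fold. Its relative KIF18B, which shortens astral microtubules, had 7.83 and 7.60, a difference of only 0.23. KIF18A was thus among the highest of the 12 and KIF18B next to lowest. The chromokinesin KIF22, which pushes chromosome arms toward the metaphase plate, had 6.69 and 6.18, or 1.43-fold, and a difference of 0.08 on a dimmer probe set. KIF4A, a chromokinesin that also acts at the central spindle, had 7.86 and 7.52, or 1.27-fold. Its intronless copy KIF4B was not analysed here, and the probe set of KIF4A may read both.

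Kinesins of the central spindle and cytokinesis held both the highest and the lowest of the 12 differences. KIF14, which acts with citron kinase at the midbody, had 8.61 in AGS.W and 7.67 in AGS.veh, or 1.92-fold, and 0.89 on its second probe set against 0.94 on the first. Only 2.23% of all genes had a difference as high as that of KIF14. KIF20A, which brings the chromosomal passenger complex to the central spindle, had 8.72 and 8.24, or 1.39-fold. KIF20B, another motor of late cytokinesis, had 7.23 and 6.80, or 1.35-fold, while 2 of its probe sets below the filter had -0.22 and 0.17. KIF23, the motor of the centralspindlin complex, had 7.68 and 7.56, or 1.08-fold, on its brightest probe set. On its other probe set KIF23 had 6.13 and 4.87, a difference of 1.27, so the gene stood lowest or highest of the 12 depending on the probe set. The 12 genes had 16 probe sets that passed the filter and all 16 were higher in AGS.W, against 46.1% of all named probe sets that passed. Of the 16, 12 are the brightest ones already given, and 7 of the 12 genes had no further probe set at all.

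**Figure D3:**
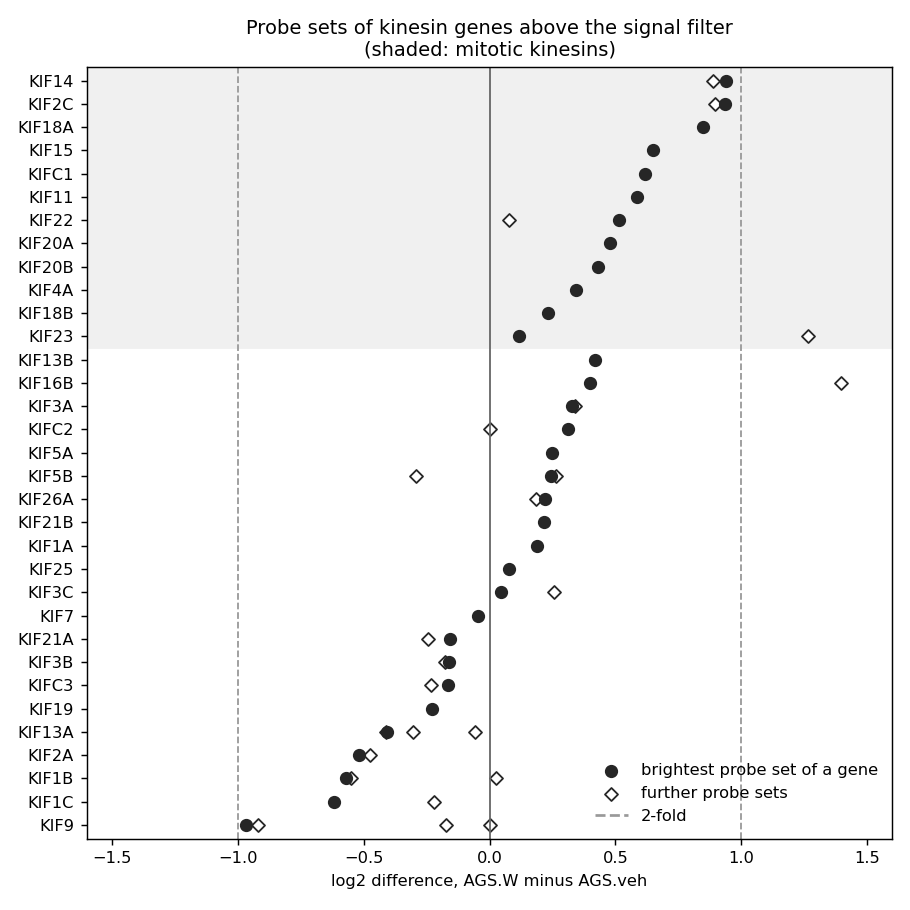
Log2 difference AGS.W minus AGS.veh (horizontal axis) of every kinesin probe set above the signal filter, with filled circles for the brightest probe set of a gene, open diamonds for further ones and dashed lines at 2-fold. All 16 probe sets of the shaded mitotic kinesins lie to the right of 0, the diamond and circle of KIF23 lie at 1.27 and 0.12, and those of KIF16B at 1.40 and 0.40.

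Of the other kinesins, 2 were at least 1.5-fold lower in AGS.W on the brightest probe set, where 7.37% of all genes were, and none was 1.5-fold higher. As means over all probe sets of a gene, both fell short of 1.5-fold, with -0.52 for KIF9 and -0.37 for KIF1C. KIF16B, by contrast, had a mean of 0.90, more than 1.5-fold higher. KIF9, a kinesin of motile cilia and flagella, had 7.67 in AGS.W and 8.64 in AGS.veh on its brightest probe set, or 1.96-fold lower. A second probe set of KIF9 gave -0.92, while the remaining probe sets above the filter had -0.17 and 0.00. The 3 with lower values are of the _x_at type, whose probes may match several transcripts, and the probe set at 0.00 is not. That probe set read 4.16 on both arrays, just above the medians of 4.02 and 4.03, so it says little about KIF9. KIF1C, a motor of dense core vesicles, had 6.72 and 7.34, or 1.54-fold lower, and -0.22 on its second probe set above the filter.

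The kinesin-3 family, which carries vesicles and organelles, was split. KIF1B, which moves mitochondria and synaptic vesicle precursors, had 7.20 in AGS.W and 7.77 in AGS.veh, a difference of -0.57, and -0.55 and 0.02 on further probe sets. KIF13A, a motor of recycling endosomes, had 7.22 and 7.63, a difference of -0.41, and all 4 of its probe sets above the filter were lower. KIF13B went the other way, with 5.42 and 5.01, a difference of 0.42. KIF16B, a motor of early endosomes that binds phosphoinositides, had 6.63 and 6.23 on its brightest probe set, a difference of 0.40. The other probe set of KIF16B, equally bright in AGS.W, had 6.63 and 5.23, a difference of 1.40. KIF1A, the neuronal member, had 4.53 and 4.34, just above the median of each array. The mitotic KIF14 also belongs to kinesin-3.

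In kinesin-13, which shortens microtubules, KIF2A and KIF2C differed in opposite directions. KIF2A, which acts at spindle poles and in neurites and was not among the 12, had 6.99 in AGS.W and 7.51 in AGS.veh, a difference of -0.52, and -0.48 on its second probe set. KIF2B and KIF24 of this family lay below the filter. Such a contrast was also seen in kinesin-8, where KIF19, a regulator of cilium length, had 4.98 and 5.21, a difference of -0.23 against 0.85 for KIF18A. In kinesin-4, KIF4A was higher, whereas KIF21A and KIF7 had -0.16 and -0.05 and KIF21B had 0.21.

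The general cargo motors had small differences. KIF5B, the widely expressed heavy chain of kinesin-1, had 9.37 in AGS.W and 9.13 in AGS.veh, a difference of 0.24, with 0.26 and -0.29 on its other probe sets. KIF5A, its neuronal relative, had 4.32 and 4.07, close to the median, and KIF5C was below it. In the heterotrimeric kinesin-2 of intraflagellar transport, KIF3A had 5.79 and 5.46, a difference of 0.33, and 0.34 on a second probe set. Its partner KIF3B had 8.13 and 8.29, a difference of -0.16, and -0.18 on a second probe set. KIF3C had 0.05 and KIF17 lay below the filter with equal signals on both arrays. In kinesin-14, KIFC2 had 0.31 and KIFC3, a motor of apical transport and cell junctions, had -0.17, against 0.62 for the mitotic KIFC1. KIF26A, which binds microtubules without motor activity, had 0.22 and KIF25 had 0.08. KIF6, KIF12, KIF26B and KIF27 also stayed below the filter, and the differences of the 8 dim genes lay between -0.38 and 0.49 on signals under the array medians.

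Genes of proteins that work with the mitotic kinesins were also all higher in AGS.W. Of 17 listed partners 16 were measured and passed, and all 16 were higher in AGS.W, with a median of 0.59. Of these, 8 were at least 1.5-fold higher. Among all genes that passed, 45.7% were higher and 6.64% at least 1.5-fold higher. PRC1, which bundles midzone microtubules for KIF4A and KIF14, had 9.94 in AGS.W and 9.15 in AGS.veh, or 1.72-fold. RACGAP1, the partner of KIF23 in centralspindlin, had 9.44 and 8.69, or 1.67-fold, against 1.08-fold for KIF23 on its brightest probe set. TPX2, which targets KIF11 and AURKA to the spindle, had 8.55 and 7.88, or 1.59-fold. AURKA, a kinase of spindle poles, had the largest difference, with 10.37 and 9.09 or 2.44-fold, and 0.98 on the log2 scale when its probe sets were averaged. Of the chromosomal passenger complex that KIF20A carries, INCENP, AURKB, BIRC5 and CDCA8 had differences of 0.94, 0.75, 0.54 and 0.54. PLK1, which binds KIF20A, had 0.71, and CENPE, the kinetochore kinesin whose symbol lies outside the KIF names, had 0.52. DLGAP5, HMMR, NUSAP1 and CENPF, further spindle and kinetochore proteins, had 0.55, 0.46, 0.62 and 0.57, and CENPF had 0.20 when its probe sets were averaged. The smallest were those of ECT2, a cytokinesis factor, with 0.23 and of KIFBP, which binds several kinesins, with 0.15.

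Partners of the transport kinesins, the opposite motor dynein and the microtubule subunits went both ways. Of 17 transport partners that passed, 13 were higher and 4 lower, with a median of 0.16, 2 of them higher and 1 lower by 1.5-fold or more. These counts stand beside 45.7% of all genes higher, 6.64% higher by 1.5-fold and 7.37% lower by 1.5-fold, so that the counts past 1.5-fold are near the background. The cargo adaptor CLSTN1 had 0.61, the mitochondrial GTPase RHOT1 0.59 and the kinesin light chain KLC4 0.57, while the adaptors SYBU, TRAK2 and TRAK1 had -0.63, -0.44 and -0.27. When probe sets were averaged, RHOT1 had 0.38 and KLC4 0.28. Of 27 genes of dynein, dynactin and their adaptors, 17 were higher and 10 lower, with a median of 0.02, where 45.7% of all genes were higher. NDE1, which acts on dynein, and DYNC1LI1, a subunit of dynein, both also used in mitosis, had 0.80 and 0.69. As means of their probe sets they had 0.22 and 0.07. SPDL1, the dynein adaptor of kinetochores, had -0.56, or -0.89 on average. Tubulin genes, whose probe sets can be shared between near-identical copies, were lower for 10 of 13, where 50.5% of all genes were lower, with a median of -0.08 and the largest difference, -0.46, for TUBE1, which had -0.19 when its probe sets were averaged. Of 18 intraflagellar transport genes, the cargo system of kinesin-2 in cilia, 12 were lower, against 50.5% of all genes, with a median of -0.20. IFT27 was lowest at -0.77, or -0.31 as an average of its probe sets.

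The listed regulators of mitotic promoters and the DNA replication genes also went both ways. Of 17 regulators that passed, 9 were higher and 8 lower, with a median of 0.03, where 45.7% of all genes were higher and 50.5% lower. FOXM1 and MYBL2, transcription factors of G2 and M phase genes, had 7.55 and 8.20 in AGS.W against 7.51 and 8.14 in AGS.veh, differences of 0.03 and 0.06, and were named after their values were seen. LIN37 and LIN52, subunits of the DREAM complex that binds CHR elements, had 0.76 and 0.46, with 0.29 and 0.38 as means of their probe sets. TFDP1 and E2F3, of the E2F family and its partners, had -0.72 and -0.69, and NFYC, a subunit of NF-Y, had -0.48. As an average of its probe sets, TFDP1 had -0.29. Of 24 replication genes, 14 were higher and 10 lower, with a median of 0.03, and 0 of them were 1.5-fold higher on the brightest probe set, near the 6.64% of all genes. CDC6 was highest at 0.37, and GINS2 and PRIM1 had -0.92 and -0.45. When probe sets were averaged, GINS2 had -0.47, and CDT1, named after its values were seen, was highest at 0.61, past 1.5-fold, against 0.23 on its brightest probe set. These lists were not tested against the kinesins.

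**Figure D4:**
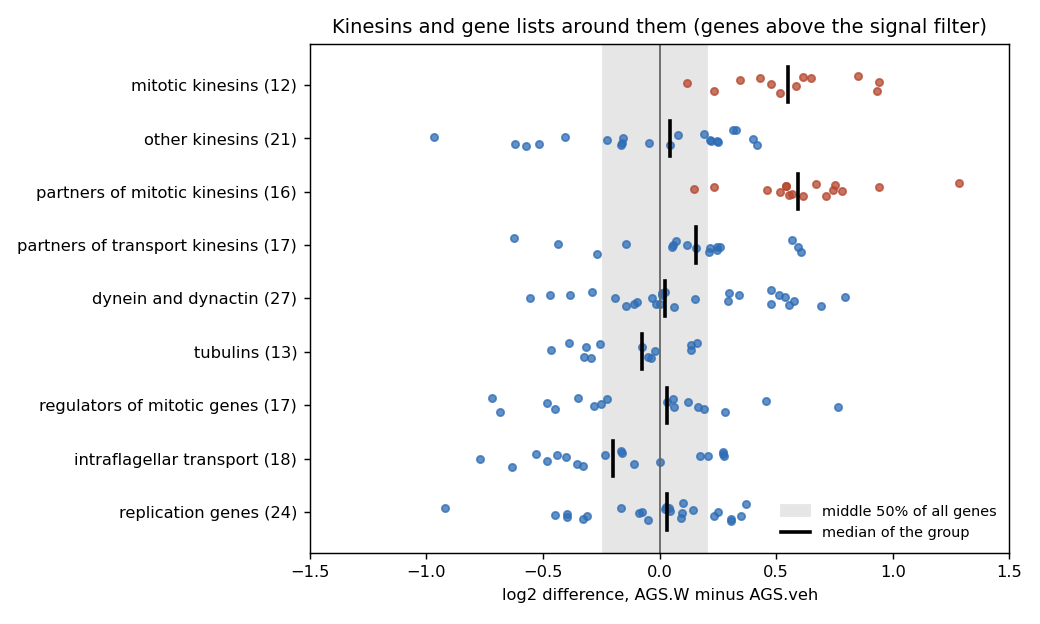
Log2 difference AGS.W minus AGS.veh (horizontal axis) of every gene above the signal filter in the kinesins and 7 lists around them, with black bars at the medians, the number of genes in brackets and a grey band for the middle 50% of all genes, from -0.24 to 0.20. Mitotic kinesins and their partners have medians of 0.55 and 0.59, and the other groups have medians between -0.20 and 0.16.

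Other genes with the same promoter letters, in any order and at any spacing, were spread around 0. Of 666 genes outside the kinesin family that passed the filter and had both kinds of letters in a window, 50.9% were higher in AGS.W and 9.76% at least 1.5-fold higher, with a median of 0.01. Of 5196 genes with neither kind, 44.3% were higher and 5.77% at least 1.5-fold higher, with a median of -0.02. KIF2C, without these letters in its window, was second highest of the 12 mitotic kinesins. Of the 2 other kinesins with both kinds, KIF5B, where their order was reversed, had 0.24 and KIF24 was dim on both arrays.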

How the data were processed

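RNA of AGS.W and of AGS.veh cells was measured on a single array per line. The values deposited by the authors are on a log2 scale, and their near-equal quartiles show that the arrays had already been brought to a common scale. The submitters' processing notes name RMA and MAS5 without versions or roles, and the background correction is not given in the sources used here. With a single array per line, the precision of a difference is unknown.

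After 62 control probe sets were left out, 54613 remained. The platform annotation of 2016 assigned 41091 to 1 gene and 1801 to several, and the latter were not used. Symbols were updated through RefSeq gene identifiers for GRCh38.p14, and the kinesin members were the same 41 genes by old and new symbols. Differences were computed on the deposited log2 scale for all genes. No test was run. The mitotic kinesins and their partners were named in full, the other kinesins when at least 1.5-fold apart or to show the range of a family, and of the other lists up to 3 genes with the largest difference in each direction; a gene outside this rule is marked where it stands. The members, lists and promoter motifs were chosen with earlier results of these data known. As alternatives, arrays were rescaled by their medians, by quantiles or with a lowess curve (span 0.3), the signal filter, the fold threshold (1.5 or 3) and the summary of probe sets were changed, and dim signals were raised to the array median. The calculation was tested on simulated arrays in which the added differences were larger than any kinesin difference given here. Recovery of smaller differences was not tested. Computations ran in Python 3.11.15 with pandas 2.3.3, numpy 2.4.6 and statsmodels 0.14.6, and plots were drawn with matplotlib 3.10.9.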

Additional observations from a re-analysis of the deposited data

How the results depend on the processing

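No paired analysis was possible because neither line had a second array, which also left nothing to omit. Moves were set against the robust spread of differences among genes of like signal, or, for a median, that among its genes divided by the square root of their number. The signal filters and the bound at the array median could not change the difference of any of the 33 kinesins above the filter, since all passed on both arrays, and the arrays were so alike in scale that rescaling moved them by at most 0.0385. The summary of probe sets was the choice that mattered. The mean of all probe sets changed 23 of 33 differences, 3 of them beyond the spread, and leaving out _x_at and _s_at probe sets changed 7 of 28, 2 of them beyond it, with 0 changes of sign. The mitotic kinesins were higher for 12 of 12 as means and for 8 of 8 measured without those probe sets. With the mean of all probe sets, KIF23 had 0.69, KIF16B 0.90 and KIF9 -0.52. The median of the other kinesins was then -0.10, over the 18 whose mean passed the filter, against 21 before. That of the regulators of mitotic genes was -0.082, over 15 genes against 17. The gap between both groups of kinesins was 0.70. In these medians the members changed together with the summary, and the part of each was not separated. Without _x_at and _s_at probe sets, KIF23 had 1.27 and KIF9 0.00, the latter on a probe set just above the array medians. In that setting 1 kinesin was at least 2-fold apart, where 208 of all genes were higher and 228 lower by as much. The gap between both groups of kinesins was 0.62, with 8 mitotic and 20 other kinesins left. The median of tubulins was -0.27, over 8 genes against 13 before. At 1.5-fold 7 of the 33 kinesins were apart, where 6.64% of all genes were higher and 7.37% lower by as much. With any probe set allowed, 2 kinesins were at least 2-fold apart, and the share over all genes was not computed for that setting. With no signal filter the median of transport partners was 0.12. An offset before the log2 step was not run, because the values were already log2.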
